A study of Drosophila melanogaster with 10 samples.

Results

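Mediator is a large multiprotein complex that carries signals from DNA-bound transcription factors to RNA polymerase II. Its head and middle modules contact the polymerase and the general transcription factors, its tail module is the main landing place of activators, MED14 is the scaffold that joins the 3, and a separable kinase module (skd, kto, CycC and Cdk8) regulates the core. The title of the series names the hormone ecdysone and Mediator in the end of neuroblast proliferation, which in the Drosophila central brain falls in the pupal stage. The genes described here were all those whose symbol in the deposited gene tables is MED followed by a number, plus the 4 kinase module genes. The symbols, not the values, picked each gene, and 29 genes of 14210 listed were found. The choice of this group of genes was made with earlier results of these data known. By role, 9 belonged to the head, 9 to the middle, 6 to the tail with MED27 among them, 4 to the kinase module, and MED14 stood alone. These placements are background knowledge from yeast and mammalian Mediator.

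RNA was measured in sorted neural stem cells (neuroblasts) of the central brain of Drosophila melanogaster in 3 groups: wild-type larvae, wild-type pupae and pupae with RNAi against med27. All 3 groups carried inscuteable-Gal4 driving UAS-CD8::GFP, a membrane-bound fluorescent protein. The wild-type animals carried VIE-260B, an RNAi landing site without a construct, and the RNAi animals carried a med27 hairpin from that collection. The knockdown was thus driven in cells that express inscuteable and came from a single hairpin line. Eggs were collected over 24 h, animals were kept at 29 °C for 5 days (larvae) or 6 days (pupae, 0 to 2 h old), and large cells with high GFP were sorted. The labels name 2 biological replicates per group and, for both pupal groups, 2 technical runs of each replicate. With runs averaged, each group has n = 2, and the p-values reflect only how far these samples spread. Levels are in FPKM (fragments scaled to transcript length and to the mapped fragments of the library), as normalised by the authors. These are bulk samples, in which fewer cells of a type and less RNA per cell cannot be told apart.

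From the deposited confidence bounds, larval libraries held 18493900 and 18806400 fragments, and each pupal run held 27107100 to 30935300. The 7 neuroblast markers summed to 1374 to 1745 FPKM in every replicate, and mira, which encodes an adaptor of neuroblast asymmetric division, took 793 to 955 FPKM of it. In pupal against larval wild type 3 of the 7 were higher (ase, grh and pros, by 0.67, 0.78 and 1.13 on the log2(FPKM + 1) scale), and in RNAi against wild-type pupae 2 were lower (ase at -0.82 and pros at -0.56). Markers of haemocytes and fat body summed to at most 0.995 and 0.301 FPKM in any replicate. Neuron markers (8 genes) summed to 18.4 and 16.0 FPKM in the larval replicates. The sums were 49.7 and 85.3 for the wild-type pupae and 47.6 and 51.8 for the RNAi pupae. All 5 neuron markers that passed the filter on low values were higher in pupae than in larvae, elav among them at 11.8 and 15.3 FPKM in larvae and 36.7 to 61.8 in the pupal groups. Of the 5 glial markers, repo, the glial identity factor, was at most 0.834 FPKM, whereas Eaat1, a glutamate transporter, lay at 61.1 to 75.6 FPKM in the wild-type samples and at 18.6 and 18.7 in the RNAi pupae. The largest part of the glial sum was nrv2, a sodium pump subunit, at 97.5 to 131 FPKM. It was 0.15 higher in RNAi than in wild-type pupae without passing the test (limma adjusted p = 0.298) and 0.29 higher than in larvae (limma adjusted p = 0.0443). Glial markers summed to 160 and 193 FPKM for the larvae, to 184 and 188 for the wild-type pupae, and to 150.7 and 149.97 for the RNAi pupae. The part of these marker differences in the Mediator values was not tested.

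MED27 (FBgn0037359, at 3R:1480867-1482058 in the deposited tables and on the plus strand in the reference annotation) is the targeted gene. Its yeast counterpart is a tail subunit. Larvae had 31.7 and 38.3 FPKM and wild-type pupae 31.5 and 27.4 FPKM, against 5.33 and 3.99 FPKM in the RNAi pupae. Both RNAi replicates lay far below every wild-type replicate, as their label states. On the log2(FPKM + 1) scale the RNAi pupae differed from wild-type pupae by -2.43 (SE 0.15, limma adjusted p = 0.000522), and the mean FPKM was 6.31-fold lower. Between the wild-type stages the difference of -0.24 (SE 0.15) did not pass the test (limma adjusted p = 0.215), although both pupal replicates were below both larval ones. The residual MED27 value rested on at least 104 fragments per run, and without either RNAi replicate the difference stayed between -2.26 and -2.60. The gene shares 107 nt with CG2182 on the opposite strand, which was 0.14 higher in RNAi pupae on the log2(FPKM + 1) scale without passing the test (limma adjusted p = 0.25).

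Relative to the median level of the other 28 members, MED27 stood at 87.3 and 95.6% in the larval replicates. The wild-type pupae had 88.7 and 74.8%. In the RNAi pupae it stood at 11.5 and 8.30% of that median. It ranked 15th to 24th of the 29 members in the 4 wild-type replicates. It was the lowest member in RNAi replicate 1 and the second lowest in RNAi replicate 2, where MED9 was listed lower. Against the other tail genes it fell from 91.8 to 148% of their median in the wild-type replicates to 16.1 and 12.7% in the RNAi replicates.

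The authors' deposited table of the pupal comparison gave a larger difference for the same gene. It lists MED27 with base means (read counts divided by size factors) of 143.6 in RNAi and 1779 in wild-type pupae, a 12.4-fold difference against 6.31-fold in FPKM. The fragments implied by the FPKM, with the runs of each replicate summed and the replicates averaged, were 289 in RNAi and 1860 in wild-type pupae. The base mean in the authors' deposited table was therefore 95.6% of the implied fragments in wild type but 49.8% in RNAi. For the other 5 members in the authors' deposited table the same share lay between 91.8 and 102% in both groups. Which step produced the gap for MED27 was not tested.

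The other 28 members were not lower as a group in the RNAi pupae. Compared with wild-type pupae, 12 of the 29 members were higher and 1, MED27 itself, was lower at a limma adjusted p below 0.05. Among all 6992 genes with a mean of at least 1 FPKM, all 29 members included, 19.6% were higher and 8.64% lower. The median change of the 28 members other than MED27 was 0.26 on the log2(FPKM + 1) scale, against 0.05 over all genes. In 25 of the 28, both RNAi replicates lay above both wild-type replicates, a pattern found in 42.7% of all genes. The other 3 were skd, Cdk8 and MED9, whose groups overlapped. With quantile normalisation the members' median stayed above 0 at 0.15, but 6 members were higher, against 12.6% of all genes, and of all calls 52.9% rather than 69.4% were in the higher direction.

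**Figure D1:**
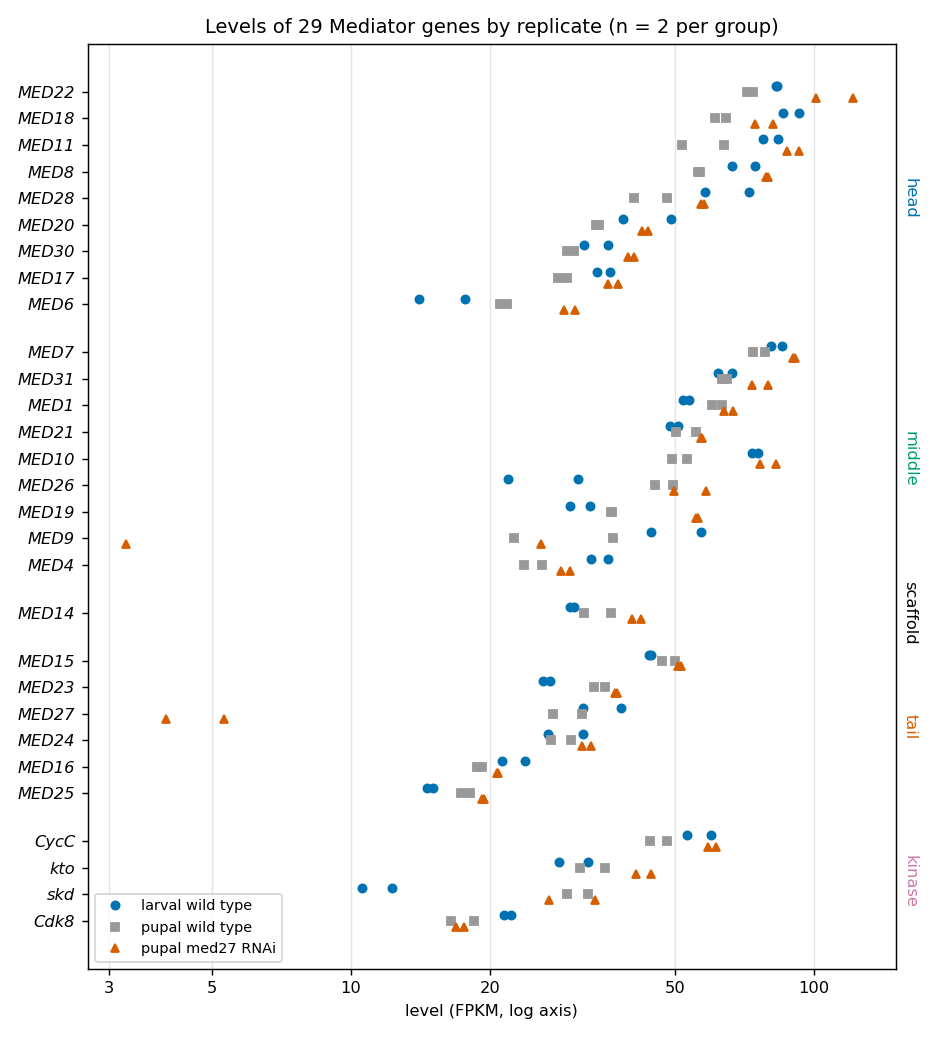
Level of each of the 29 Mediator genes in FPKM on a log axis, by module, with 1 point per biological replicate (n = 2 per group). MED27 drops to 5.33 and 3.99 FPKM in the RNAi pupae, most head genes have their RNAi points to the right of the pupal wild-type points, and skd has its larval points at 12.2 and 10.6 FPKM, apart from all pupal points.

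The head module held most of these changes. All 9 head genes had both RNAi replicates above both wild-type ones, 7 of 9 passed the test, and the median change was 0.42 with a range of 0.31 to 0.63 on the log2(FPKM + 1) scale. MED11 and MED22, a dimer in the head, changed most. MED11 measured 64.0 and 52.0 FPKM in wild-type pupae and 92.7 and 87.4 in RNAi pupae, a log2 change of 0.63 (SE 0.11, limma adjusted p = 0.00675). MED22 measured 73.8 and 71.5 FPKM against 122 and 101, a log2 change of 0.60 (SE 0.10, limma adjusted p = 0.00547). For both, the RNAi replicates also exceeded the larval ones, which were 77.4 and 83.7 FPKM for MED11 and 82.6 and 83.1 for MED22.

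MED8, MED18 and MED20 form the movable jaw of the head in yeast. MED8 rose from 56.6 and 56.2 FPKM to 79.4 and 78.7 (log2 change 0.48, SE 0.08, limma adjusted p = 0.00629), and MED18 rose from 61.0 and 64.4 FPKM to 81.5 and 74.7 (log2 change 0.31, SE 0.08, limma adjusted p = 0.0315). MED20 measured 34.3 and 33.9 FPKM in wild type and 42.5 and 43.8 in RNAi pupae. Its groups did not overlap, but its log2 change of 0.33 (SE 0.12) missed the threshold (limma adjusted p = 0.0724).

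Of the rest of the head, MED17, the central head subunit, rose from 29.3 and 27.9 FPKM to 35.9 and 37.7 (log2 change 0.35, SE 0.08, limma adjusted p = 0.0191). MED6, which lies between head and middle, rose from 21.7 and 20.9 FPKM to 28.8 and 30.5 (log2 change 0.46, SE 0.12, limma adjusted p = 0.0262). MED30, a subunit of animal Mediator without a yeast counterpart, rose from 29.3 and 30.3 FPKM to 40.9 and 39.6 (log2 change 0.42, SE 0.09, limma adjusted p = 0.0127). Each of the 3 had groups well apart. MED28, at 48.2 and 40.8 FPKM in wild type and 57.0 and 57.9 in RNAi pupae, gave 0.37 (SE 0.12) and missed the threshold (limma adjusted p = 0.0661).

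In the middle module, whose long helical subunits link the head to the rest of the complex, 3 of 9 genes were higher and the median change was 0.23. MED10 rose from 53.2 and 49.3 FPKM to 76.5 and 82.8 (log2 change 0.63, SE 0.08, limma adjusted p = 0.00255). MED19, placed here with the middle, rose from 36.6 and 36.3 FPKM to 56.1 and 55.5 (log2 change 0.60, SE 0.08, limma adjusted p = 0.00295). MED7, the partner of MED21 in the hinge of the middle, rose less, from 73.9 and 78.4 FPKM to 90.1 and 90.8 (log2 change 0.25, SE 0.07, limma adjusted p = 0.0465). MED31, MED4, MED26, MED21 and MED1 had differences of 0.25, 0.23, 0.19, 0.11 and 0.08 on the log2(FPKM + 1) scale, all with both RNAi replicates above both wild-type ones, and none passed the test. MED14, the scaffold, measured 31.9 and 36.5 FPKM in wild type and 40.5 and 42.2 in RNAi pupae, a difference of 0.27 (SE 0.09, limma adjusted p = 0.0624).

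Of the 5 tail genes other than MED27, none passed the test. For MED15, MED16, MED23, MED24 and MED25, the differences lay between 0.08 and 0.18 on the log2(FPKM + 1) scale with a median of 0.12. Their summed level was 147.1 and 148.9 FPKM in wild-type pupae and 161.0 and 160.6 in RNAi pupae. The tail sum with MED27 included was 179 and 176 FPKM in wild type and 166 and 165 in RNAi pupae, so the loss of MED27 exceeded the gain of the other 5. The head sum was 418 and 398 FPKM in wild type and 580.3 and 551 in RNAi pupae.

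The kinase module did not move as a unit. CycC, the cyclin partner of Cdk8, rose from 48.0 and 44.2 FPKM to 61.5 and 59.1 (log2 change 0.38, SE 0.09, limma adjusted p = 0.0201), and kto, the MED12 homologue, rose from 31.2 and 35.4 FPKM to 41.4 and 44.5 (log2 change 0.36, SE 0.11, limma adjusted p = 0.0413). The kinase Cdk8 itself was at 18.4 and 16.4 FPKM in wild type and 17.5 and 16.8 in RNAi pupae, a difference of -0.02 (SE 0.09, limma adjusted p = 0.904). The gene skd, the MED13 homologue that tethers the kinase module to the core, was at 29.2 and 32.5 FPKM in wild type and 26.7 and 33.6 in RNAi pupae, a difference of -0.04 (SE 0.13, limma adjusted p = 0.849). In skd and Cdk8 the groups overlapped.

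**Figure D2:**
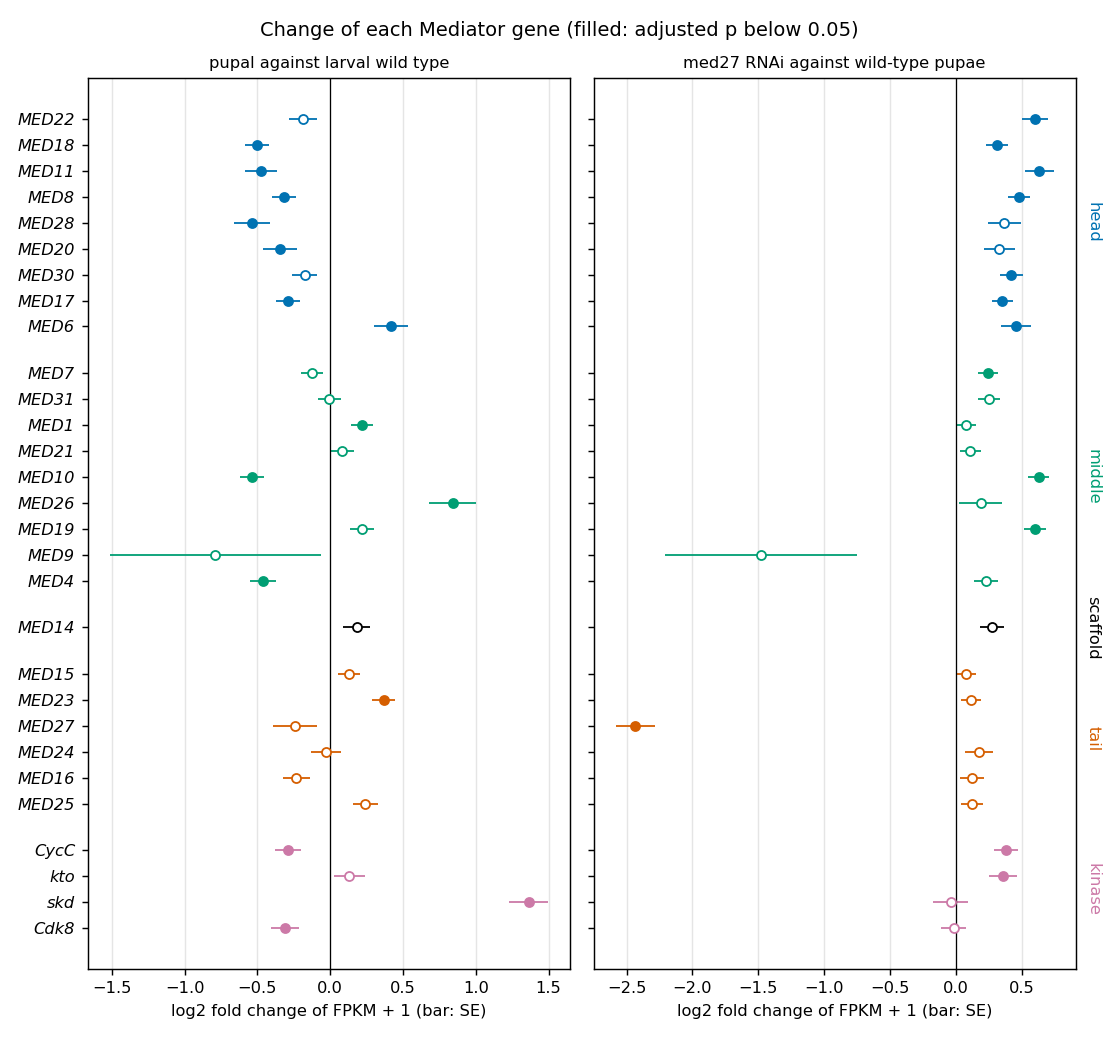
Log2 fold change of FPKM + 1 for each of the 29 Mediator genes, with bars of 1 SE and filled points where the limma adjusted p was below 0.05 (n = 2 per group, horizontal axes differ between panels). In the RNAi panel the head genes lie between 0.31 and 0.63, the tail genes other than MED27 between 0.08 and 0.18, and MED27 at -2.43; in the stage panel skd lies at 1.36 and most head genes lie below 0.

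Not all of these calls were equally firm. MED8, MED10, MED11 and MED19 stayed higher under all 14 other ways of processing the data that were tried, the 6 that leave out 1 replicate among them. MED22 lost its call in 1 of them, the removal of each library's trend with transcript length (limma adjusted p = 0.0607). In the authors' deposited table of the pupal comparison, which holds 1597 genes with an adjusted p-value below 0.01, the same 5 genes and MED27 are the members listed. The authors' deposited table gives RNAi over wild-type ratios of 1.36 for MED8, 1.46 for MED19, 1.47 for MED22, 1.51 for MED11 and 1.52 for MED10. The other 7 calls held in 6 to 10 of the 14 each. Without any 1 of the RNAi or wild-type pupal replicates fewer members were higher, and fewer of all genes were called. Without either larval replicate, which enters only through the shared estimate of the spread, more members were higher and more of all genes were called. The drop or rise is thus not particular to the members.

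MED9, a middle subunit, needs its own account. The deposited tables place it inside the span of CG42518, and the reference annotation puts both on the same strand, so that fragments of the locus had to be divided between them. MED9 was listed at 57.0 and 44.5 FPKM in larvae. The 2 runs of the same pupal RNA were listed at 20.8 and 24.1 FPKM in wild-type replicate 1, at 45.5 and 27.9 in wild-type replicate 2, at 28.3 and 23.1 in RNAi replicate 1, and at 0.0014 and 6.52 in RNAi replicate 2. Between runs of 1 RNA the value thus moved by up to 99.98% of the higher run, whereas for the 27 members other than MED9 and MED27 the largest such gap was 9.26%.

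The sum of MED9 and CG42518 was steady between runs, at 71.7 and 72.4 FPKM in wild-type replicate 1 and 96.7 and 95.4 in RNAi replicate 2. By replicate the sum was 92.4 and 84.2 FPKM for the larvae, 72.05 and 69.7 for the wild-type pupae, and 88.2 and 96.0 for the RNAi pupae. With the sum in place of MED9, a choice made after seeing the data, the RNAi difference turned from -1.48 (SE 0.73, limma adjusted p = 0.169) to 0.37 (SE 0.08, limma adjusted p = 0.0167). The low MED9 value against larvae (-2.27, SE 0.73, limma adjusted p = 0.0369) likewise became 0.06 (limma adjusted p = 0.573). MED31, a conserved middle subunit that lies wholly within slx1, was 85.5 to 92.6% of the sum of that pair in every run. Summed with slx1 it gave 0.30 in RNAi against wild-type pupae (limma adjusted p = 0.0334) where MED31 alone gave 0.25 (limma adjusted p = 0.0539). FPKM is scaled to each gene's own length, so these sums are not fragment counts of a locus. Nor are they levels of MED9 or MED31 alone. As listed, CG42518 was itself 0.90 higher in RNAi than in wild-type pupae (limma adjusted p = 0.0248) and slx1 0.68 higher (limma adjusted p = 0.00908). With the sums standing in for MED9 and MED31, 14 entries were higher in RNAi pupae, both sums among them.

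**Figure D3:**
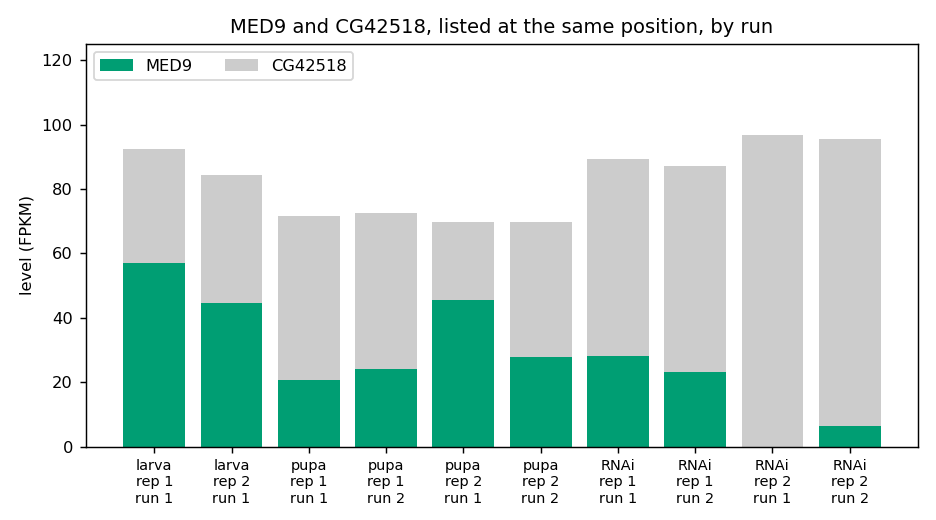
Stacked levels in FPKM of MED9 and CG42518 in each of the 10 runs (the larval replicates have 1 run each). The MED9 part ranges from 57.0 FPKM in a larval run to 0.0014 in an RNAi run, while the total height of runs of the same RNA differs little, as at 96.7 and 95.4 FPKM in RNAi replicate 2.

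Between wild-type larvae and pupae the members moved in both directions. The wild-type pupae here are the samples that the RNAi pupae were set against. Opposite changes in both comparisons are therefore not independent. In pupae 5 members were higher and 10 lower, where 22.7% of all genes were higher and 26.5% lower. The members' median difference was -0.18 on the log2(FPKM + 1) scale, against -0.07 over all genes. Without larval replicate 2 or pupal replicate 2 fewer members were lower, and without either pupal replicate fewer were higher. Fewer of all genes were called in these fits as well. Both pupal replicates lay above both larval ones in 9 members and below in 16, patterns held by 33.8 and 43.3% of all genes. The neuron markers given above were also higher in pupae, and their part in these differences was not tested.

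In the values as deposited the largest rise was in skd, which went from 12.2 and 10.6 FPKM in larvae to 29.2 and 32.5 in pupae (log2 change 1.36, SE 0.13, limma adjusted p = 0.00132). It was the lowest member in both larval replicates and not in any pupal one. MED26, a subunit that binds elongation factors in mammals, rose from 31.0 and 21.8 FPKM to 45.3 and 49.5 (log2 change 0.84, SE 0.16, limma adjusted p = 0.00587). These are also the only members in the authors' deposited table of the stage comparison, which lists skd at a 2.78-fold and MED26 at a 2.15-fold higher base mean in pupae among 1958 genes. MED6 rose from 17.7 and 14.0 FPKM to 21.7 and 20.9 (log2 change 0.42, SE 0.12, limma adjusted p = 0.0231), but lost its call without larval replicate 2 or either pupal replicate.

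MED23 (0.37) and MED1 (0.22), a tail subunit and the nuclear receptor contact of the complex, were the other members to rise on the log2(FPKM + 1) scale. MED23 shares 19.0% of its span with CG3700 on the same strand, and the sum of the pair overlapped between the stages, at 40.1 and 36.3 FPKM in larvae and 40.3 and 38.4 in pupae. FPKM is scaled to each gene's own length, so this sum is not a count of the fragments of the locus. Whether the shared span has a part in the MED23 rise was not tested. MED1 kept its call in none of the 6 fits that left out 1 replicate.

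In the same values the largest falls were in head and middle genes. MED28 went from 58.0 and 72.5 FPKM in larvae to 48.2 and 40.8 in pupae (log2 change -0.54, SE 0.12, limma adjusted p = 0.0116), a call that was lost without replicate 2 of either stage. MED10 went from 73.5 and 75.8 FPKM to 53.2 and 49.3 (log2 change -0.54, SE 0.08, limma adjusted p = 0.00273). MED18 went from 85.8 and 92.8 FPKM to 61.0 and 64.4 (log2 change -0.50, SE 0.08, limma adjusted p = 0.00364). The other members to fall were MED11, MED4, MED20, MED8, Cdk8, MED17 and CycC, with log2 changes from -0.47 to -0.29. By module, 1 head gene rose and 6 fell, 2 middle genes rose and 2 fell, 1 tail gene rose, and in the kinase module skd rose while Cdk8 (21.4 and 22.2 FPKM in larvae) and CycC (53.3 and 60.0 FPKM) fell. The calls of Cdk8 and CycC held in 7 and 5 of the 14 other ways of processing. With each library's trend with transcript length removed, their changes were -0.13 and -0.03 and passed no test. The gene kto, at 28.1 and 32.4 FPKM in larvae, overlapped with its pupal values and did not pass the test.

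Against wild-type larvae, the RNAi pupae showed 11 members higher and 3 lower, where 27.8% of all genes were higher and 19.5% lower. This comparison shares its samples with both others. The higher members included skd (1.32), MED26 (1.03), MED6 (0.87), MED19 (0.82), kto (0.49), MED14 (0.45) and MED22 (0.42), as log2 changes of FPKM + 1. The lower ones were MED27 (-2.67), MED9 as listed, and Cdk8 (-0.33). With quantile normalisation 9 were higher and 5 lower, beside 22.7 and 23.2% of all genes. Without either RNAi replicate fewer members were higher, and without larval replicate 2, or either RNAi replicate, fewer were lower. Fewer of all genes were called in these fits as well. The 6 head genes that were lower in wild-type pupae than in larvae did not sit alike in RNAi pupae. MED18, at 81.5 and 74.7 FPKM, lay between the larval values of 85.8 and 92.8 and the wild-type pupal values of 61.0 and 64.4. MED17, at 35.9 and 37.7 FPKM, overlapped with the larval values of 34.0 and 36.3. MED20 (42.5 and 43.8 FPKM) lay within its larval values of 38.6 and 49.2, and MED28 (57.0 and 57.9) just below its larval values of 58.0 and 72.5. MED8 (79.4 and 78.7 FPKM against 66.6 and 74.6) and MED11 lay above both larval replicates. For MED18 and MED17, neither differed from larvae past the threshold (limma adjusted p = 0.0992 and 0.548).

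Transcript length moved with these differences and is given beside them. For this, each gene's log2(FPKM + 1) was taken as a deviation from its own mean over the 6 replicates. Over all genes with a length, this deviation changed with each doubling of transcript length by -0.12 and -0.20 in larvae. It changed by 0.09 and 0.19 in wild-type pupae, and by 0.0033 and 0.042 in RNAi pupae. These slopes are relative to the mean of the replicates and are not slopes of the level itself. The modules differed in length. The head genes ran from 602 to 2060 nt and the tail genes other than MED27 from 2592 to 4682 nt. Over the 27 members without MED27 and MED9, log2 length and log2 change had r = 0.79 between the stages and r = -0.59 between RNAi and wild-type pupae, where all genes with a length (6916) had r = 0.54 and -0.25. These values are descriptions across genes, which share libraries and depth.

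In the stage comparison the 10 members of up to 1000 nt had a median log2 change of -0.39, and all genes of that length had the same -0.39. The 10 members above 2500 nt had a median of 0.20 against 0.34 for all genes of that length. In the RNAi comparison the members of up to 1000 nt had a median of 0.34 against 0.31 for all such genes. The 7 members of 1000 to 2500 nt had 0.38 against 0.07, and those above 2500 nt had 0.12 against -0.04.

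With each library's length trend removed, 5 members were higher and 4 lower in wild-type pupae against larvae, against 5 and 10 before. Of all genes 13.3% were then higher and 19.0% lower. Of those 15 calls 3 were kept, those of skd, MED6 and MED17. The log2 change of skd shrank from 1.36 to 0.43, below that of MED6 at 0.53, and those of MED26 (0.33), MED10 (-0.22), MED18 (-0.19) and MED28 (-0.23) no longer passed the test. The middle module's median then turned from -0.01 to 0.18. In RNAi against wild-type pupae 10 members were higher, beside 16.2% of all genes, 9 of them among the 12 above and the other MED14, and MED27 was lower. MED7, MED18 and MED22 lost their calls. The head then had 5 of 9 genes higher with a median of 0.29, and the other 5 tail genes had none, with a median of 0.16. The middle then had 2 higher with a median of 0.04, or 0.09 without MED9, and the kinase module 2 with a median of 0.15, so the tail median was above that of the middle. Whether length itself or a property that goes with it underlies the trend was not tested.

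**Figure D4:**
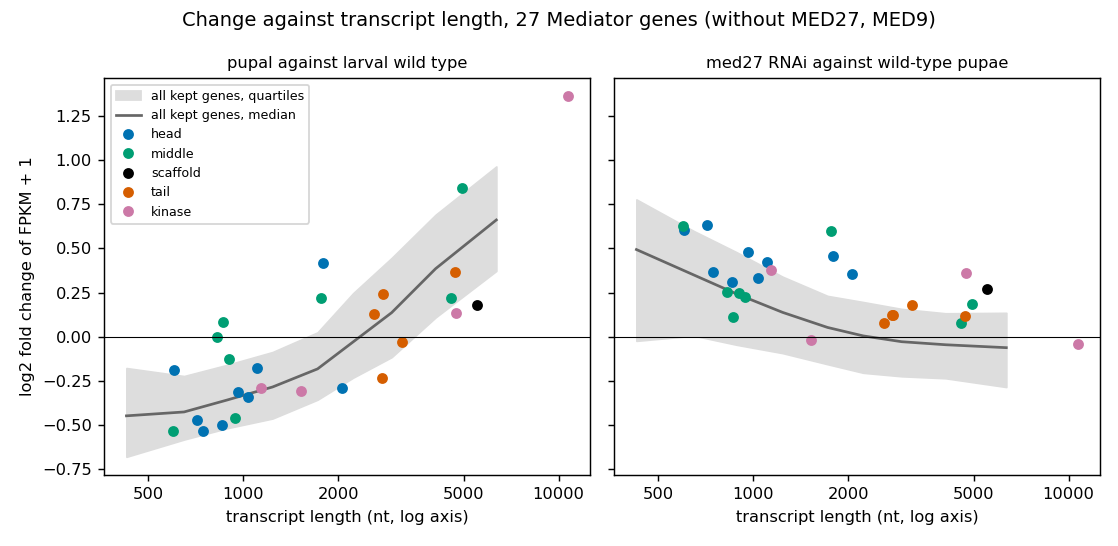
Log2 fold change of FPKM + 1 against transcript length (log axis) for 27 Mediator genes, coloured by module, over the median (line) and quartiles (band) of all kept genes in bins of length. In the stage panel the members' median rises from -0.39 up to 1000 nt to 0.20 above 2500 nt, where all genes have -0.39 and 0.34. In the RNAi panel the members of 1000 to 2500 nt have a median of 0.38 against 0.07 for all genes of that length.

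The levels of the members kept much of their order. Over 27 members, without MED27 and MED9, the mean levels of wild-type and RNAi pupae had r = 0.97, and those of larvae and wild-type pupae had r = 0.84, as descriptions across genes that share libraries. The highest member was MED18 in larvae, at 85.8 and 92.8 FPKM, MED7 in wild-type pupae, at 73.9 and 78.4, and MED22 in RNAi pupae. In wild-type pupae the highest member was 4.27 and 4.77 times the lowest, which was MED25 (17.3 FPKM) in replicate 1 and Cdk8 (16.4 FPKM) in replicate 2. MED25 (17.3 and 18.0 FPKM) and Cdk8 (18.4 and 16.4) overlapped, and MED16 at 19.2 and 18.8 FPKM lay just above both. The median of all 29 members, MED27 included, lay above 61.5 to 66.7% of all kept genes in the 6 replicates. The gene ix, the MED29 homologue, which the symbol rule leaves out, had larval levels of 24.0 and 29.1 FPKM, wild-type pupal levels of 25.2 and 22.7 and RNAi levels of 29.7 and 25.3, and passed the test in none of the comparisons.

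Other parts of the transcription machinery were read from lists made for comparison, with earlier results of these data known. Of the 12 RNA polymerase II subunit genes, 11 were higher in RNAi than in wild-type pupae and none was lower, with a median of 0.43 on the log2(FPKM + 1) scale, beside the 19.6 and 8.64% of all genes. Rpb12 rose by 0.86 and RpII18 by 0.75, and Rpb7 alone missed the threshold at 0.31 (limma adjusted p = 0.0995). These are mostly short genes, with a median transcript of 710 nt (709.75), and 6 were higher with the length trend removed and 4 with quantile normalisation. Of the 30 general transcription factor genes found, 15 were higher and none lower (median 0.30), led by Taf10b at 0.91 and TfIIA-S at 0.89. With quantile normalisation 9 were higher and with the length trend removed 13, none being lower in either. Of 18 elongation and pausing genes, 5 were higher and 1 lower. The kinase Cdk9 rose by 0.83 and spt4 by 0.69, and TH1, a pausing factor subunit, fell by 0.42. The elongation counts were 3 and 2 with quantile normalisation and 5 and 2 with the length trend removed. Of all genes 12.6% were higher and 11.2% lower with quantile normalisation, and 16.2 and 11.3% with the length trend removed.

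Between the wild-type stages the same lists moved the other way in part. The same wild-type pupal samples enter both comparisons with opposite sign, so opposite changes are not independent observations. For RNA polymerase II, RpII215, its largest subunit, rose by 0.60 and 6 genes fell, Rpb10 by 0.73 and Rpb8 by 0.46. Of the general factors 2 rose, Taf4 (0.91) and Taf1 (0.23), and 13 fell, CycH (-0.71) and Taf10 (-0.55) most. Of the elongation list 8 rose, fs(1)h (1.37) and CycT (1.17) most, and Cdk9 (-0.64) and spt4 (-0.25) fell. Of all genes 22.7% were higher and 26.5% lower between these stages. With quantile normalisation 3 polymerase genes and 10 general factors were lower, beside 24.5% of all genes. With the length trend removed, 2 polymerase genes and 9 general factors were still lower, beside 19.0% of all genes. The elongation genes had a median transcript of 3275.5 nt. Of them 9 were higher and 2 lower with quantile normalisation, and 5 and 3 with the length trend removed. All genes had 21.8 and 13.3% higher in these settings. The median change of the elongation list went from 0.08 to 0.02 with the length trend removed. RNAi pupae against larvae gave 3 higher and none lower for the polymerase, 8 and 3 for the general factors, and 11 and 2 for elongation, beside 27.8 and 19.5% of all genes. For the general factors these counts were 5 and 5 with quantile normalisation, beside 22.7 and 23.2% of all genes. With the length trend removed they were 14 and 2, beside 21.9 and 22.4% of all genes. No test of a difference between any list and the Mediator members was made.

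**Figure D5:**
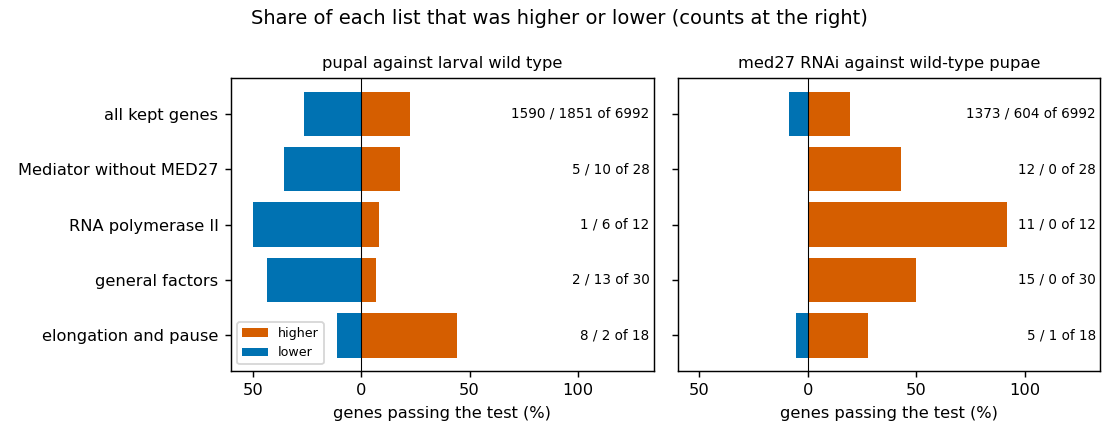
Percentage of genes in each list that were higher (right) or lower (left) at a limma adjusted p below 0.05, with the counts of higher and lower genes printed at the right. In RNAi against wild-type pupae, 12 of 28 Mediator genes without MED27, 11 of 12 RNA polymerase II genes and 15 of 30 general factors were higher, beside 19.6% of all kept genes.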

How the data were processed

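Per the labels' protocols, polyA-selected, strand-marking (dUTP) libraries were made from sorted cells. The authors deposited FPKM per gene and run as Cufflinks tables, per the file headers, and 2 tables of DESeq comparisons. In these the base means are a signal (counts divided by size factors by the authors), the fold change is the authors' ratio, the log2 fold change is its log2, and the adjusted p-value deposited is below 0.01 throughout. Tools named without a role, per the submitters' processing notes, were DESeq 1.8.3, HTSeq, Cufflinks 1.3.0, TopHat 1.4.1 and BWA 0.6.1. Not given in the sources used here were the genome build, the annotation and whether counting used strand, so overlapping genes are uncertain. Coordinates are the deposited ones, counted from 1. Strands and transcript lengths (median of a gene's transcripts) came from a FlyBase-based reference annotation and need not match the authors' models.

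Runs were averaged. The test was limma 3.58.1 (R 4.3.3) on log2(FPKM + 1), two-sided and with an intensity trend, in 1 fit of the 3 groups (3 residual degrees of freedom, 4.28 prior). The 6992 of 14210 genes with a mean of at least 1 FPKM were kept, and p-values were Benjamini-Hochberg adjusted over them at 0.05. All 29 members passed this filter. The log scale understates changes of low genes. Fragments per gene were estimated from FPKM confidence bounds, and library depth from these and transcript lengths. The script was tested on simulated data. Member values are given by replicate for MED27, the kinase module, MED14, every member called in RNAi against wild-type pupae and the 3 largest called stage changes in each direction. For each other transcription list the log2 change is given for the 2 largest called changes in each direction. MED9, MED20, MED23, MED28 and further list and marker genes were added after their values were seen. The members and lists were chosen with earlier results of these data known. In the general factor list, Tfb2 and Tfb5 had no matching symbol. Alternatives were pseudocount 0.1, no filter, a mean of at least 5 FPKM, quantile normalisation, removal of each library's length trend, the first run alone, a replicate block and leaving out each replicate.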

Additional observations from a re-analysis of the deposited data

How the results depend on the processing

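MED27 kept its direction and call in RNAi against both wild-type groups under all 14 alternatives. The genes called between the stages numbered 3441, or 2234 with the length trend removed and 1917 to 3469 with 1 replicate left out. Between RNAi and wild-type pupae they numbered 1977, or 1315 with no filter and 728 to 2254 with 1 left out, the lowest without RNAi replicate 2. Against larvae they numbered 3313, or 1614 to 3270. Leaving out 1 replicate moved the members higher in pupae than larvae from 5 to 2 to 4 and those lower from 10 to 3 to 12 (4 with the length trend removed). It moved the members higher in RNAi than wild-type pupae from 12 to 5 to 15 (6 with quantile normalisation) and those lower from 1 to 1 to 2. For RNAi against larvae it moved 11 higher to 6 to 13 and 3 lower to 1 to 3 (5 with quantile normalisation). Removing the length trend turned the sign of 9 members between the stages, 5 of them called in either fit: kto to -0.35, MED14 to -0.39, MED1 to -0.24, MED23 to -0.11 and MED31 to 0.31. The other 4, MED7, MED22, MED27 and MED30, were called in neither. Against larvae it turned 4 in RNAi pupae, MED14 to -0.051 and MED1 to -0.10 and, called in neither fit, MED20 and MED24. Against wild-type pupae it turned skd and MED21, called in neither. The sum of MED9 and CG42518, put in place of MED9, gave 0.37 against wild-type pupae and 0.061 against larvae, where MED9 as listed was below 0. The cause of these turns was not tested.

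Replicates of the same number did not deviate together across groups over the kept genes (r = -0.06, -0.10 and -0.03). With 1 difference per group, these values cannot show whether samples of the same number were prepared together. With a replicate block 10 members were higher and 1 lower in RNAi against wild-type pupae, and 1537 genes were called. With 2 replicates per group, small changes of single members may go undetected, and larval values rest on fewer fragments. A fit without 1 replicate assumes that the lone sample varies like the other groups.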
